A study of Saccharomyces cerevisiae with 2 samples.

Results

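The genes described here encode the stand-alone RNAs at the core of large ribonucleoprotein machines of budding yeast (Saccharomyces cerevisiae): the spliceosomal RNAs U1 (SNR19), U2 (LSR1), U4 (SNR14), U5 (SNR7-L) and U6 (SNR6), the signal recognition particle RNA (SCR1), the telomerase RNA (TLC1), the RNase MRP RNA (NME1) and the RNase P RNA (RPR1). They were chosen by name, as the 9 genes of this kind in the gene table, out of 6431 nuclear genes, and all 9 names were found there. The data are 1 DRIP-seq immunoprecipitate with the monoclonal antibody S9.6, which binds RNA:DNA hybrids, and the peaks called from it. An input library of the same DNA, taken without antibody, has no values of its own here. The yeast were asynchronous cells of strain WRBb-9D in mid-log growth in YPAD, a rich medium, at 30 °C. They were MATa, carried the marker alleles ade2-1 and trp1-1, his3-11,15 and can1-100, and the double allele leu2-3 with leu2-112, and had bar1-delta, RRM3::FLAG::KAN and ura3::URA3/GPD-Tk(7x). The sample titles call these cells wild type, so the tag on the helicase gene RRM3, the deletion of BAR1 and the construct at ura3 belong to the only strain measured. There is no replicate and no further strain or treatment, and every value below is therefore a description of 1 library, with no p-value and no error.

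The small nuclear RNAs U1, U2, U4, U5 and U6 pair with the pre-mRNA and with each other to remove introns. The signal recognition particle carries ribosomes that make secreted proteins to the endoplasmic reticulum. Telomerase copies a template in TLC1 onto chromosome ends, RNase P trims the 5′ end of tRNA precursors, and RNase MRP acts in ribosomal RNA processing. None of these RNAs is translated, and most are transcribed at high rates and kept for a long time. RNA polymerase III makes U6, the SRP RNA and the RNase P RNA, as it makes tRNAs and 5S rRNA, while RNA polymerase II makes the others in budding yeast. An RNA:DNA hybrid forms when a transcript pairs with its DNA template, and the displaced strand together with the hybrid is called an R loop.

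The list held 1687 nuclear peaks with a median width of 325 bp and a median score of 24, the lowest score in the list being 13. The score is the authors' own whole-number value per peak. Its scale is unknown here, so it only orders the peaks below or sets a stricter selection of them. Peak starts lie on a 25 bp grid, and 1476 summits stand in the middle of a 25 bp step, so that positions are known to no better than this. Read depth is unknown. Because the DNA was cut with restriction enzymes before the immunoprecipitation, a peak can be wider than the hybrid under it, and the width of each peak is given beside the RNA gene. Coordinates are 1-based positions of the sacCer3 build.

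Of the 9 RNA genes, 5 were touched by a peak, against 21.8% of all nuclear genes, and 4 had at least 50% of their length inside peaks, which was so for 5.82% of nuclear genes. These 4 were LSR1, SNR19, SCR1 and NME1. LSR1 and SCR1 lay wholly inside a peak, as did 2.35% of nuclear genes. This share was 18.4% for snoRNA genes and 25.8% for nuclear tRNA genes, so it is not particular to these RNA genes. TLC1 was touched over a part of its length. SNR14, SNR6, SNR7-L and RPR1 had no base inside a peak. The median share inside peaks was 24.0% over the 9 genes and 0% over all nuclear genes. Summed over the 9 genes, 52.8% of bases were inside peaks, against 7.1% for all nuclear genes, and LSR1 alone supplied 1175 of those bases.

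**Figure D1:**
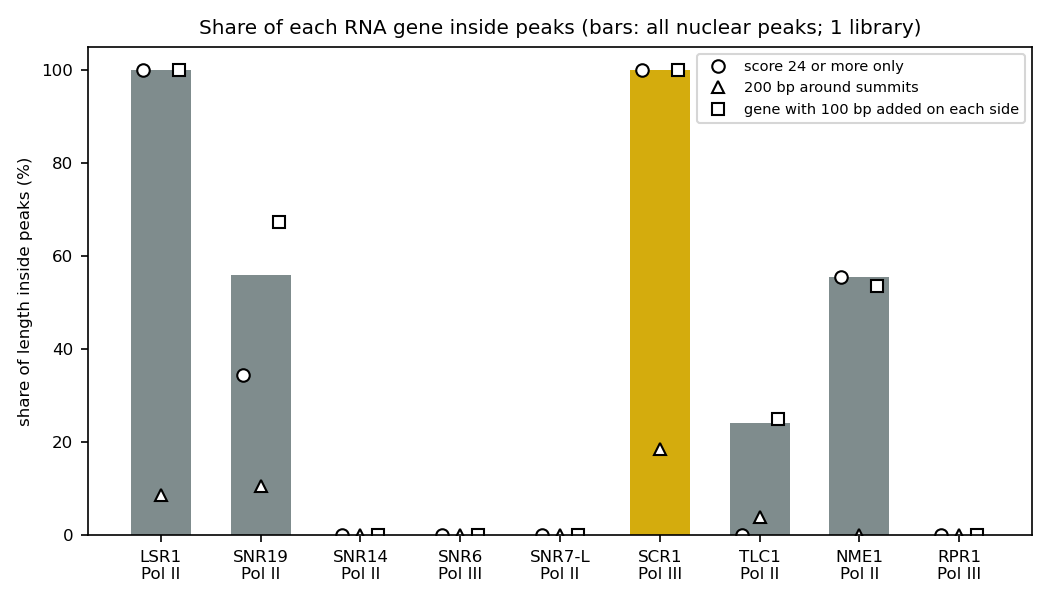
Share of the length of each RNA gene inside peaks, in percent (bars, grey for genes of RNA polymerase II and yellow for those of RNA polymerase III), with the same share under other settings (symbols), in 1 library. LSR1 and SCR1 reach 100%, SNR19 and NME1 lie at 56.0% and 55.6%, TLC1 at 24.0%, and 4 genes at 0%.

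The RNA genes differ in length from most genes, and the share of genes that met a threshold differed between length classes. The 5 genes that were touched are from 340 to 1301 bp long, and the 4 untouched ones from 112 to 369 bp. Among the 1002 nuclear genes under 400 bp, 19.4% were touched and 15.1% were covered by the 50% rule. Among the 2943 nuclear genes of 400 to 1400 bp, 17.6% were touched and 5.4% were covered. The shorter class takes in many tRNA genes (median 73 bp, 29.8% covered) and snoRNA genes (median 125 bp, 25.0% covered). The part of length was not tested apart from the kind of gene. All 4 genes longer than 400 bp among the 9 were touched, while 1 of the 5 shorter ones, NME1, was.

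LSR1 encodes U2, the RNA that pairs with the branch point of the intron. The gene lies on the minus strand of chromosome II (680688 to 681862, 1175 bp), and all of it was inside 1 peak of 5125 bp (678726 to 683850). That peak scored 246, the sixth highest score of the nuclear list, and was the ninth widest. It touched no tRNA gene and no repeated ORF over 5000 bp, the length class of retrotransposon frames. The nearest tRNA gene stood 35449 bp away and the nearest such ORF 415547 bp away. Of the 1524 nuclear peaks that touched neither, only a pair on chromosome XII scored higher, with 679 (488751 to 490575) and 273 (469126 to 475725). Both lay over repeated 5S rRNA genes, RDN5-6 under the first and RDN5-3 under the second.

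The summit of this peak was at 680688, which is the last base of LSR1, so that the highest point of the peak and the 3′ end of LSR1 lay within the same 25 bp step. LSR1 makes up 22.9% of the peak, which went on for 1988 bp upstream of the gene and for 1962 bp beyond its 3′ end, nearly evenly. Under it lay, also whole, SWC5, a subunit of the SWR1 chromatin remodelling complex, 316 bp upstream of LSR1, OM14, a protein of the mitochondrial outer membrane, and the small gene COQ21, which faces LSR1 from 125 bp beyond its 3′ end. The peak also took in 17.3% of ROT2, which encodes glucosidase II of the endoplasmic reticulum, and 34.1% of PBP2, an RNA-binding protein gene. No gene annotation covered 27.6% of the peak. The summit also stood 126 bp from the 3′ end of COQ21, and the peak list has no strand. The signal of LSR1 therefore cannot be told apart from that of its neighbours under the same peak.

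SNR19 encodes U1, the RNA that pairs with the 5′ splice site. It lies on the minus strand of chromosome XIV (230105 to 230672, 568 bp), and 56.0% of it was inside peaks, from 2 peaks that entered it from either end. The peak on the 3′ side (229276 to 230300, 1025 bp, score 46) covered the last 196 bp of the gene and had its summit 142 bp beyond the 3′ end. The peak on the 5′ side (230551 to 230925, 375 bp, score 18) covered the first 122 bp and had its summit 41 bp upstream of the start. The 250 bp in the middle of U1 had no peak. The first of these peaks ranked 231 of the nuclear list and the second 1120, below the median score.

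Beyond the 3′ end of SNR19, the whole gap of 390 bp to SSU72 was inside the larger peak, as was 70.7% of SSU72, which encodes a phosphatase of the RNA polymerase II tail that acts in 3′ end formation. SSU72 runs towards SNR19, and its bases make up 42.8% of that peak, against 19.1% for SNR19. On the 5′ side stood POP1, which encodes the largest protein of RNase P and RNase MRP. It was 15.2% inside peaks, from a peak (231201 to 231600, score 28) that did not reach SNR19. Both summits nearest to SNR19 lay outside any gene.

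The other spliceosomal RNA genes were untouched, and their surroundings differed. SNR14, the U4 RNA that chaperones U6 (chromosome V, 167427 to 167586, minus strand), stood in a stretch of 17.8 kb without a peak (158776 to 176575) that also holds its neighbours TMA20 and SEC3. The nearest peak was 8651 bp away, over PMI40 (158501 to 158775, score 32), and the one on the other side (176576 to 177275, score 43) held a tRNA gene, YNCE0012W. SNR7-L, the long form of U5, the RNA that holds the exon ends (chromosome VII, 939459 to 939672, minus strand), stood in a stretch of 23.2 kb without a peak (931901 to 955075), between TOS2 and PET54. Its nearest peak (931176 to 931900, score 32) was 7558 bp away and lay over no gene. The one on the other side (955076 to 955350, score 15) lay in PHO81. SNR7-S, the short form at the same locus (939494 to 939672), lies in the same stretch, 7593 bp from that nearest peak. Stretches of this kind were common: of 1671 gaps between neighbouring nuclear peaks, 22.3% were 10 kb or longer, with a median of 2975 bp, and the gaps around SNR7-L and SNR14 ranked 101 and 177 by length. Of all nuclear genes, 12.6% were at least as far from a peak as SNR14 and 15.8% at least as far as SNR7-L.

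SNR6, the U6 RNA at the catalytic centre of the spliceosome (chromosome XII, 366235 to 366346, plus strand), also had no peak, but peaks began 379 bp beyond its 3′ end. The first of them (366726 to 366925, score 15) lay inside YLR108C, an ORF with no gene name here that runs towards SNR6 and was 32.6% inside peaks. Its summit was 392 bp beyond the 3′ end of U6. On the upstream side no peak stood for 11584 bp, across REX3 and into REA1. The score of 15 is below the median, and among peaks of 24 or more the nearest summit was 2067 bp from SNR6.

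**Figure D2:**
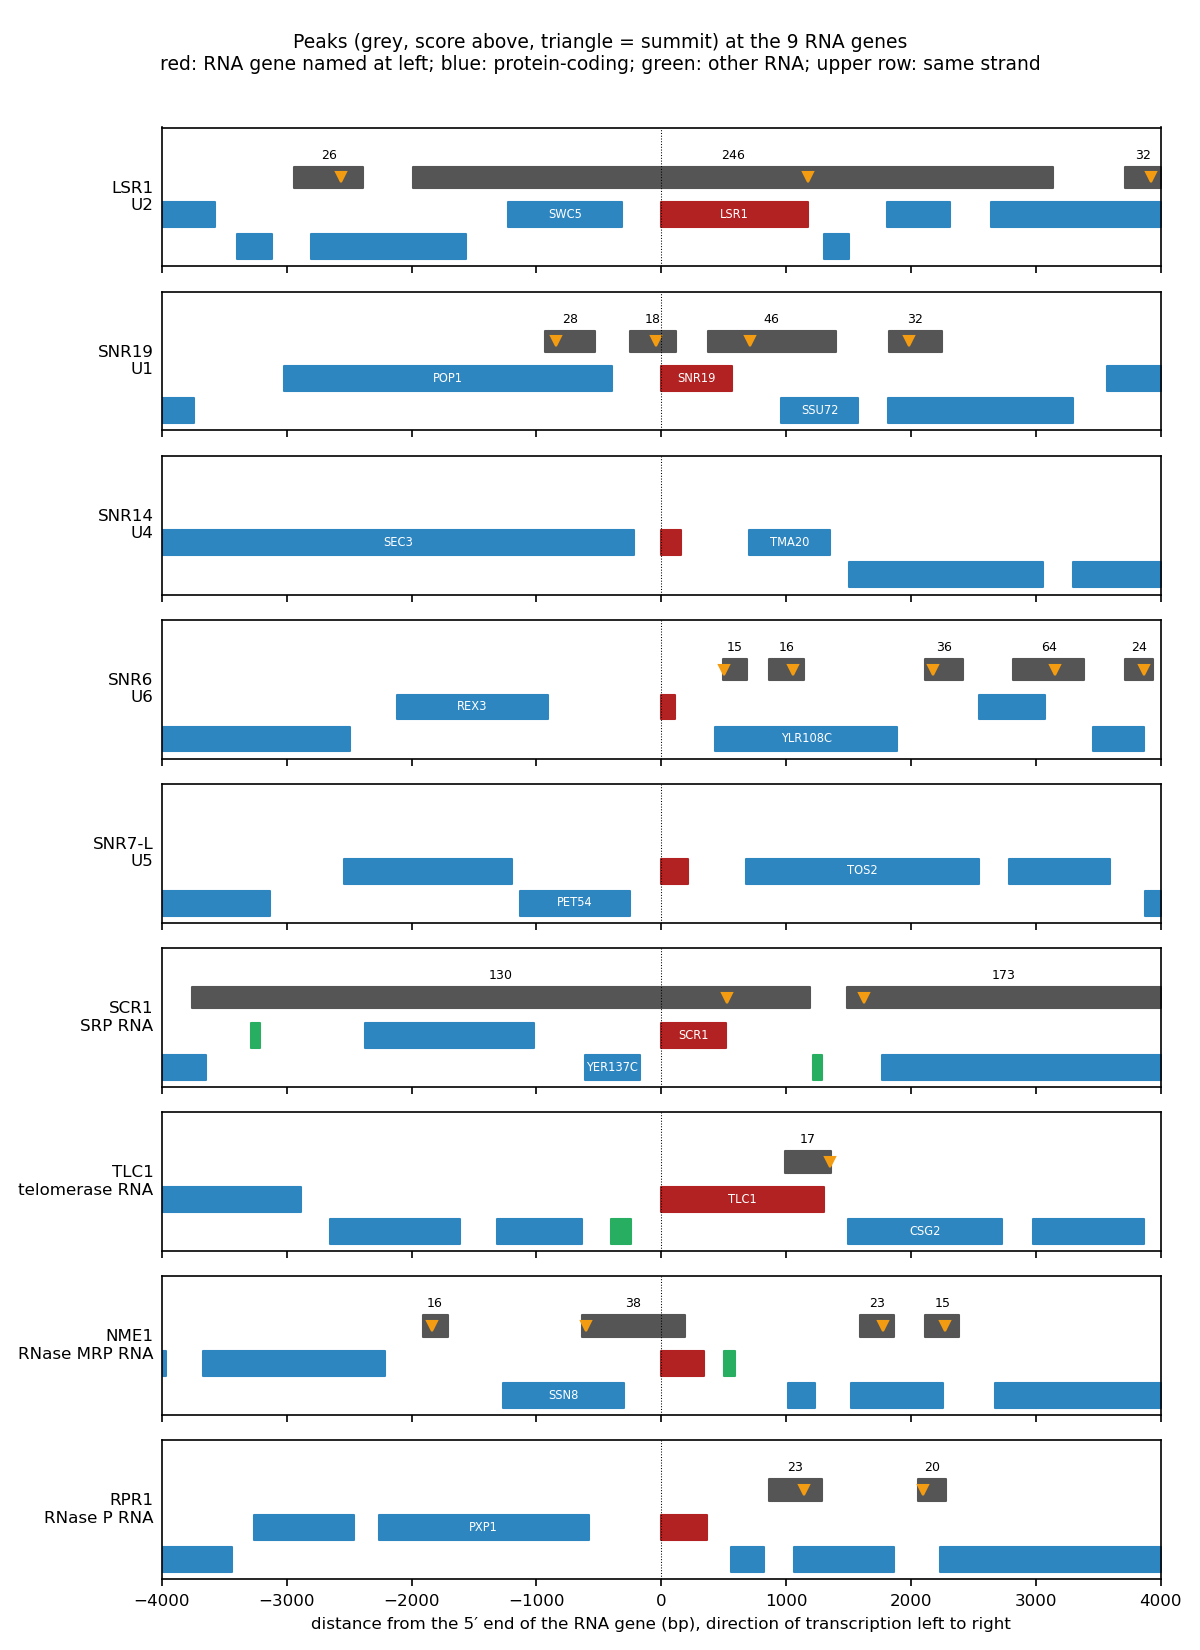
Peaks around each of the 9 RNA genes from 4000 bp upstream to 4000 bp downstream of its 5′ end, drawn in the direction of its transcription, in bp. Grey bars are peaks with their scores, triangles are summits, and boxes are genes (red for the RNA gene, upper row for its strand, with names on the RNA gene and its nearest neighbours where the box has room). The summits at LSR1, SCR1 and TLC1 stand at the 3′ end of the red box, that at NME1 stands 599 bp upstream, and SNR14 and SNR7-L have no peak in the window.

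SCR1 encodes the RNA scaffold of the signal recognition particle, made by RNA polymerase III. The gene lies on the plus strand of chromosome V (441987 to 442508, 522 bp) and was wholly inside a peak of 4950 bp (438226 to 443175, score 130), which ranked 38 by score and 11 by width among nuclear peaks. The summit was at 442513, which is 5 bp beyond the 3′ end of SCR1. The peak reached 3761 bp upstream and 667 bp downstream of the gene, and SCR1 makes up 10.5% of it. It thus extended mostly to the 5′ side, unlike the peak at LSR1.

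Other polymerase III genes and a repeated ORF stand next to SCR1. The same peak held the tRNA gene YNCE0023W (438700 to 438773) near its other edge and the ORF YER137C, both wholly. A further tRNA gene, YNCE0025C, faces SCR1 from 693 bp beyond its 3′ end and lay in the gap between this peak and the next one. That next peak (443476 to 450150, 6675 bp, score 173) held YER138C, an ORF of 5269 bp that belongs to the repeated ORFs. How much of the signal over SCR1 comes from reads of these neighbours was not tested. With peaks at tRNA genes and repeated ORFs left out, SCR1 had no peak, since its only peak holds a tRNA gene. At that setting 3 of the 9 RNA genes had 50% or more inside peaks, against 3.11% of nuclear genes. The tRNA genes and repeated ORFs still count among those nuclear genes but can have no peak, which lowers that share.

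TLC1 carries the template that telomerase copies. It lies on the plus strand of chromosome II (307587 to 308887, 1301 bp), and a single peak of 375 bp (308576 to 308950) covered its last 312 bp, 24.0% of the gene. The summit, at 308938, was 51 bp beyond the 3′ end. Of the peak, 83.2% lay in TLC1 and the rest in the gap of 193 bp before CSG2, which faces TLC1 and had no peak, so that no other gene lay under it. The score was 17, rank 1130 of 1687, and the peak is absent among those of score 24 or more. The first peaks on either side were 6286 bp upstream, over the ribosomal protein gene RPL4A, and 22013 bp downstream, in ZTA1. SNR161, a snoRNA gene that starts 241 bp upstream of TLC1 on the other strand, had no peak.

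NME1 encodes the RNA of RNase MRP. It lies on the plus strand of chromosome XIV (585587 to 585926, 340 bp), and its first 189 bp, 55.6% of its length, were inside a peak of 825 bp (584951 to 585775, score 38, rank 295). Here the peak lay on the 5′ side and its summit did not stand at the RNA gene. The summit, at 584988, was 599 bp upstream of NME1, inside SSN8, which encodes the cyclin of the Mediator kinase module and is transcribed away from NME1. SSN8 supplied 41.3% of the peak, the gap of 295 bp between both genes 35.8%, and NME1 22.9%. SNR66, a snoRNA gene 163 bp beyond the 3′ end of NME1 on the same strand, had no peak. When each peak was cut to 200 bp centred on its summit, NME1 was untouched, while LSR1, SNR19, SCR1 and TLC1 were touched. At that setting 17.8% of all nuclear genes were touched.

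RPR1 encodes the RNA of RNase P, made by RNA polymerase III (chromosome V, 117667 to 118035, minus strand, 369 bp). It had no peak and stood in a stretch of 15.8 kb without one (117176 to 132975), near its end. The nearest peak (116751 to 117175, score 23) was 491 bp beyond the 3′ end of RPR1, past TIM9, which encodes a small chaperone of the mitochondrial intermembrane space and had no peak. That peak overlapped the end of URA3 (27.4% of its length), the locus at which this strain carries a construct, and whether the construct bears on it was not tested. On the 5′ side, beyond PXP1, the next peak was 14940 bp away and reached GLC3.

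**Figure D3:**
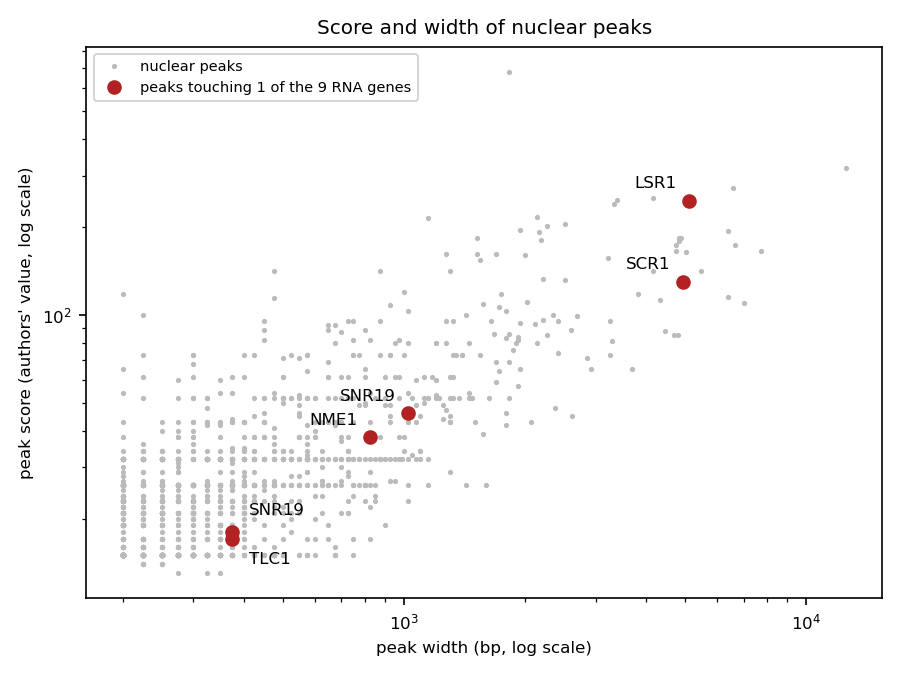
Score against width (bp) of each nuclear peak, both on log scales, with the 6 peaks that touch 1 of the RNA genes in red. The peaks of LSR1 (5125 bp, score 246) and SCR1 (4950 bp, score 130) lie among the widest and highest of the list, and the peak of TLC1 and the smaller peak of SNR19 (375 bp, scores 17 and 18) lie below the median score of 24.

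Where a summit stood close to an RNA gene, it was mostly at the 3′ end. For LSR1, SCR1 and TLC1 a summit stood within 100 bp of the 3′ end (0, 5 and 51 bp), that is for 3 of 9 genes, against 3.81% of nuclear genes. SNR19 was the only one of the 9 with a summit within 100 bp of the 5′ end (41 bp), which 3.03% of nuclear genes had. With 50 bp in place of 100 bp, 2 of the 9 genes and 1.97% of nuclear genes had a summit at the 3′ end, and with 200 bp 4 of the 9, now with SNR19, and 7.04%. With the peaks of score 24 or more TLC1 left this group, with 2 of 9 against 2.15%. Without the peaks at tRNA genes and repeated ORFs SCR1 left it, with 2 of 9 against 3.2%. The distance was looked at after the positions of these summits were known.

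The 3 genes with a summit at the 3′ end share an arrangement: the next gene downstream runs towards them. This holds for 6 of the 9 RNA genes (LSR1, SNR19, SNR6, SCR1, TLC1 and RPR1), and for 3299 of the 6431 nuclear genes, and was noticed in these data. Of the 6, 3 had a summit within 100 bp of the 3′ end, against 3.97% of the 3299 nuclear genes with such a neighbour and 3.67% of the 3107 whose downstream neighbour runs the same way. Over all nuclear genes the direction of the neighbour thus went with little difference in this share. The gap to the facing gene was 100% inside peaks at LSR1 and SNR19, 96.2% at SCR1, 32.6% at TLC1 and 0% at SNR6 and RPR1, so a facing neighbour did not go with a peak at every gene. Over all nuclear genes with a facing neighbour, 10.2% of the bases of such gaps were inside peaks. The other 3 genes, SNR14, SNR7-L and NME1, have a downstream neighbour on the same strand. None of the bases of those 3 gaps was inside a peak, against 8.33% over all nuclear genes of that arrangement. The gaps are few and short, and this difference was not tested. On the 5′ side the gap to the next gene was inside peaks over its whole length at LSR1, SCR1 and NME1, to 64.1% at SNR19 and not at all at the other 5 genes, against 9.12% of such bases over all nuclear genes.

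The flanks of the RNA genes showed how far the peaks reach around them. In the 1000 bp upstream and the 1000 bp downstream, 100% of bases were inside peaks at LSR1, 85.0% at SCR1, 74.1% at SNR19, 31.8% at NME1, 22.3% at SNR6, 21.2% at RPR1, 3.15% at TLC1 and 0% at SNR14 and SNR7-L. The median was 22.3% over the 9 genes and 0% over all nuclear genes, whose mean was 8.18%. Values as high as that of LSR1 were found at 0.466% of nuclear genes, as high as that of SCR1 at 0.995% and as high as that of SNR19 at 1.55%. TLC1 is the reverse case: its peak ended 63 bp beyond the gene, and within 2000 bp on either side only 1.57% of bases were inside peaks.

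By polymerase, 3 of the 6 genes of RNA polymerase II (LSR1, SNR19 and NME1) and 1 of the 3 of RNA polymerase III (SCR1) had at least 50% of their length inside peaks, and 4 of 6 against 1 of 3 were touched. Both sets held genes with very wide peaks and genes with none, and with so few genes the order of the sets was not tested. The share of bases inside peaks was 53.1% for the polymerase II genes and 52.0% for the polymerase III genes, the first resting mainly on LSR1 and the second on SCR1 alone. Other polymerase III genes were also split. The snoRNA gene SNR52 (chromosome V, 431129 to 431220), which is made by this polymerase too, stood 978 bp from the nearest peak. Of the 275 nuclear tRNA genes, 29.8% were covered, and of the 6 5S rRNA genes RDN5-3, RDN5-4, RDN5-5 and RDN5-6 lay wholly inside peaks, while RDN5-1 and RDN5-2 had none. The 5S genes and the tRNA genes have near-identical copies, between which reads can be shared.

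**Figure D4:**
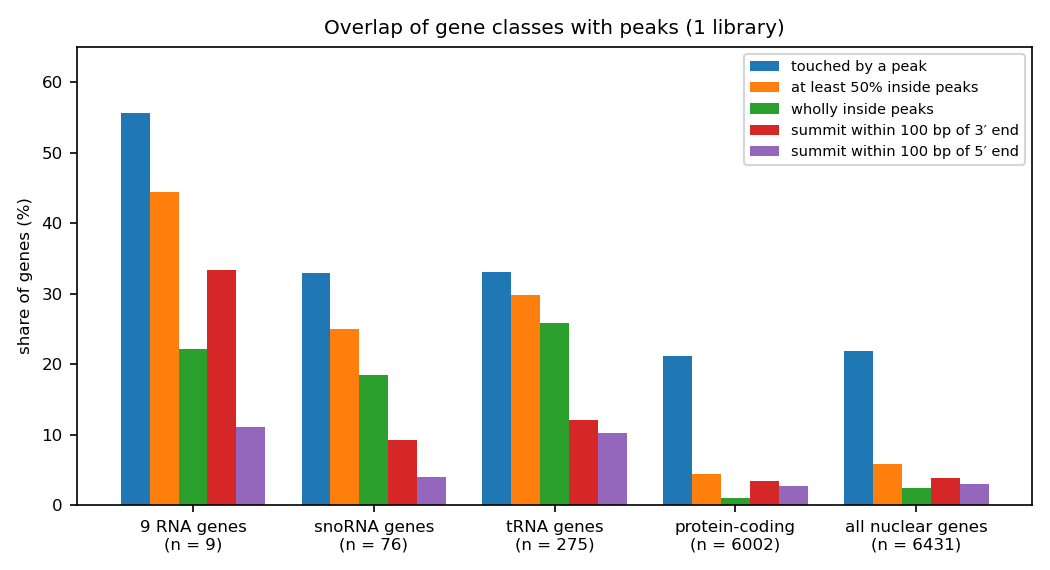
Share of genes (percent) in 5 classes that were touched by a peak, had at least 50% of their length or all of it inside peaks, or had a summit within 100 bp of the 3′ or 5′ end, in 1 library. The 9 RNA genes stand at 55.6%, 44.4%, 22.2%, 33.3% and 11.1%, and all nuclear genes at 21.8%, 5.82%, 2.35%, 3.81% and 3.03%. For genes wholly inside peaks, snoRNA genes stand at 18.4% and tRNA genes at 25.8%.

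The snoRNA genes, which make small noncoding RNAs of the nucleolus, are the nearest comparison by kind, and 25 of 76 were touched and 19 covered (25.0%). A summit stood within 100 bp of the 3′ end at 9.21% of them and of the 5′ end at 3.95%. The 3 of highest score were SNR30 (606 bp, wholly inside a peak of 4175 bp with a score of 141), SNR128 and SNR190, which share a peak of 925 bp with a score of 73. The SNR30 peak was of the width of those at LSR1 and SCR1, but its summit was 321 bp upstream of the gene, and the summit of the other peak was 315 bp beyond the 3′ end of SNR128. None of the 3 had a summit within 100 bp of either end.

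The protein genes of the same particles were set beside the RNA genes. Of 70 genes for proteins of the U1, U2, U5 and tri-snRNP particles, the Sm and Lsm rings, the signal recognition particle, telomerase, RNase P and RNase MRP, 8 were touched (11.4%) and 2 covered (2.86%), against 21.2% and 4.42% of all protein-coding genes, and the median share inside peaks was 0%, as over all nuclear genes. The covered ones were SNU66, a tri-snRNP protein (chromosome XV, 894624 to 896387; 64.5% inside peaks, score 32), and POP6, a protein of RNase P and RNase MRP (chromosome VII, 545681 to 546157; 56.6%, score 52). SNU114, the GTPase of the U5 particle, was 27.8% inside peaks with a score of 52, EST2, the reverse transcriptase of telomerase, 26.2% with a score of 23, and SRP68 16.2% with a score of 26. PRP6 (14.8%), POP1 (15.2%) and RSE1 (5.51%) were the others touched.

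None of the 10 U1 proteins, 7 Sm proteins and 7 Lsm proteins was touched, and 1 of 11 U2 proteins was. Over all protein-coding genes 21.2% were touched. The lists are short, and whether they differ from that share was not tested. PRP8 and BRR2, the largest proteins of the U5 particle, at 7242 and 6492 bp among the longest genes of these lists, had no peak. The longest untouched genes of the other lists were HSH155 and PRP9 of U2, PRP39 and SNU71 of U1, SMB1 and SMD1, LSM4 and LSM7, SRP72 and SRP54, EST1 and EST3, and RPP1 and POP4. Of EST1, EST2 and EST3, which act with TLC1 in telomerase, EST2 alone was touched.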

How the data were processed

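The deposited peak list of the S9.6 immunoprecipitate was used. MACS2 2.1.1.20160309 and SAMtools 1.7 are named, with sacCer3 as the build, per the submitters' processing notes. The aligner, the caller's threshold, the handling of multiply mapping reads and the role of the input were not given in the sources used here. Each peak's score and summit offset are the authors' values, per the file headers in narrowPeak layout. The deposited columns for fold, p-value and q-value hold 0 in every row and were not used. Gene positions came from a RefSeq table of the same S. cerevisiae assembly, with strands read from systematic names. Shares of gene length inside peaks, summit distances and gaps were computed with Python 3.11.15, pandas 2.3.3 and numpy 2.4.6. A gene was covered at 50% or more of its length and touched at 1 bp or more. Summit positions were the peak start plus the deposited offset. Repeated ORFs are unnamed ORFs over 5000 bp outside the outer 30 kb of chromosomes that share their length with another. The interval code was checked on simulated intervals. The RNA genes, the protein lists and the alternatives were chosen with earlier results of these data known. The genes named are the 9 RNA genes, the genes under their peaks (1 is not reported here), flanking genes, SNR52, the 5S genes, the 3 top snoRNA genes, and per protein list the covered and the longest untouched genes. Other protein genes touched by a peak, the 100 bp distance and the length classes were added after seeing values. Alternatives were a score of 24 or more, 1 bp or 90% overlap, 200 bp around summits, 100 bp flanks, the short U5 entry and, added later, other distances and leaving out peaks at tRNA genes or repeated ORFs. The planned search of promoter motifs was not run.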

Additional observations from a re-analysis of the deposited data

How the results depend on the processing

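With 1 library, nothing here has a replicate check, and read depth is unknown. The number of RNA genes covered was 4 of 9, and 2 when 90% of the length was required (1 of the 6 polymerase II genes). It was 3 with peaks of score 24 or more, 4 with the short U5 entry, and 3 without peaks at tRNA genes and repeated ORFs. Any overlap and 200 bp around summits count touched genes instead, which were 5 and 4 of the 9. NME1 gave way to TLC1 around the summits, and SNR19 dropped out at a score of 24 or more. Over all nuclear genes the 374 covered (5.82%) became 322 (5.01%) with a score of 24 or more and 182 (2.83%) at 90%. Without peaks at tRNA genes and repeated ORFs they were 200 (3.11%), a share that still counts the tRNA genes and repeated ORFs, none of which can then be covered. Touched nuclear genes numbered 1402 (21.8%) with any overlap and 1146 (17.8%) around summits. Among the 9 RNA genes 55.6% and 44.4% were touched at these settings, which is another measure than the covered share. The protein genes covered were 2, and 1 with a score of 24 or more and 0 at 90%. With any overlap or around the summits, 8 were touched. With 200 bp around the summits, the share inside peaks was 8.51% for LSR1, 10.6% for SNR19, 18.4% for SCR1, 3.84% for TLC1 and 0% for NME1, as shorter intervals must give. With a score of 24 or more it was 34.5% for SNR19 and 0% for TLC1. With 100 bp added on each side it was 67.4% for SNR19. The nuclear genes with a summit at the 3′ end numbered 245, and 127 within 50 bp, 453 within 200 bp and 138 with a score of 24 or more. No paired analysis was possible because the values come from 1 peak list with no replicate.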
